A study of Canis lupus familiaris with 60 samples.

Results

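AOH2 and FMO2 are genes of 2 oxidizing enzymes whose levels were measured in canine skin before and after a patch test with house dust mite. They were chosen on the size of the 24 hr interaction (the allergen effect in sensitized dogs minus that in nonsensitized dogs), which was large and negative for both. All probes of the transcripts NM_001044749 (AOH2) and ENSCAFT00000023766 (FMO2) were used, which gave 1 probe for each gene. The name FMO2 rests on the gene list of the study, whose gene ID for this transcript belongs to FMO2 in RefSeq, although another column of that list sets the same transcript beside SULT1A1. These are 2 of the 54600 transcript identifiers and 2 of the 60068 probes on the array. Both probes passed the filter on dim signals, and both were well above background on each of the 59 arrays used.

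The skin came from 12 Beagles of 2 to 3 years of age. The 6 sensitized dogs (4 males and 2 females) carried a sensitization to the house dust mite Dermatophagoides farinae, shown by intradermal test and specific serum IgE, and the 6 nonsensitized dogs (2 males and 4 females) did not. The chest of each dog was clipped 4 days before 75 mg of mite paste (allergen) and 50 microlitres of physiologic saline were applied under bandages. Each dog gave 5 punch biopsies of 8 mm: untreated skin at 0 hr, and the allergen-treated and the saline-treated site at 6 hr and at 24 hr. This makes 10 groups of 6 arrays, each array holding the RNA of 1 biopsy. Specimen 14, from the 24 hr allergen site of sensitized dog 2839, was left out for its poor RNA integrity, so that 5 arrays represent that group and 59 arrays enter the comparisons. The sensitization was made experimentally through the skin, the sexes are not balanced between the 2 groups of dogs, and the number of arrays limits the precision of each value.

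Aldehyde oxidases are enzymes of the cytosol that carry a molybdenum cofactor and a flavin, and they oxidize aldehydes, among them retinaldehyde, as well as many nitrogen-containing ring compounds. AOH2, aldehyde oxidase homolog 2, is now called AOX4, and its mouse counterpart is known from the Harderian gland, the sebaceous glands and the epidermis. Flavin-containing monooxygenases such as FMO2 sit in the endoplasmic reticulum and use NADPH and oxygen to add an oxygen atom to soft sulfur or nitrogen atoms of foreign and endogenous compounds.

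In the RefSeq annotation of the dog genome assembly UU_Cfam_GSD_1.0, which is not the build on which the array was designed, AOX4 lies between the pseudogene AOX1P and AOX2. FMO2 lies next to FMO1 in that annotation. The 2 genes are on different chromosomes.

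Across the 10 groups, AOH2 stood lowest in allergen-treated skin of the sensitized dogs at 24 hr and highest in untreated skin and in 6 hr saline-treated skin of nonsensitized dogs. Levels are given as log2 of the processed spot signal after vsn scaling, so that a difference of 1 is a doubling. In untreated skin at 0 hr, AOH2 was at 11.83 ± 0.55 (SD, n = 6) in sensitized dogs, with a lowest, median and highest value of 11.27, 11.67 and 12.88. In nonsensitized dogs at 0 hr it was at 12.40 ± 0.49 (SD, n = 6), with 11.78, 12.40 and 13.00. The values of the 2 groups of dogs overlapped at 0 hr, and the highest sensitized dog, 2838, stood apart from the other 5.

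In saline-treated skin at 6 hr, AOH2 was at 12.07 ± 0.41 (SD, n = 6) in sensitized dogs (lowest 11.34, median 12.12, highest 12.57) and at 12.51 ± 0.49 (SD, n = 6) in nonsensitized dogs (lowest 11.96, median 12.55, highest 13.14). In allergen-treated skin at 6 hr it was at 11.23 ± 1.13 (SD, n = 6) in sensitized dogs, with 8.94, 11.65 and 11.81. The corresponding group of nonsensitized dogs was at 12.04 ± 0.85 (SD, n = 6), with 10.89, 12.04 and 13.01. Allergen and saline values overlapped in both groups of dogs at 6 hr, and the value of 8.94, from dog 2855, lay far below those of the other 5 sensitized dogs.

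In saline-treated skin at 24 hr, AOH2 was at 11.11 ± 0.49 (SD, n = 6) in sensitized dogs (lowest 10.60, median 10.90, highest 11.82) and at 11.54 ± 0.44 (SD, n = 6) in nonsensitized dogs (lowest 10.73, median 11.75, highest 11.86). In allergen-treated skin of the sensitized dogs at 24 hr, the 5 values were 7.07 (dog 2855), 7.87 (dog 2841), 9.42 (dog 2838), 9.86 (dog 2853) and 10.16 (dog 2840), with a mean of 8.88 ± 1.34 (SD, n = 5). Nonsensitized dogs were at 12.08 ± 0.61 (SD, n = 6) in the same treatment, with a lowest, median and highest value of 11.47, 11.97 and 13.02. All 5 sensitized values lay below all 6 saline values of the same dogs and below all values of nonsensitized dogs, while allergen and saline values of nonsensitized dogs overlapped.

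Of the 54 arrays outside that sensitized group, 1 had an AOH2 level below its highest value, namely the 6 hr allergen array of dog 2855. The processed signal of AOH2 ranged from 120 to 1173 on the 5 arrays of the group and from 1707 to 4353 on the 6 saline arrays of sensitized dogs at 24 hr. In descending order of the mean, the AOH2 groups were nonsensitized 6 hr saline, nonsensitized 0 hr, nonsensitized 24 hr allergen, sensitized 6 hr saline, nonsensitized 6 hr allergen, sensitized 0 hr, nonsensitized 24 hr saline, sensitized 6 hr allergen, sensitized 24 hr saline and sensitized 24 hr allergen. Of the 9 pairs of neighbours in this order, 1 differed by more than the larger of its SDs, namely the last pair, which was 2.23 apart. The means spanned 3.63.

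FMO2 was also lowest in allergen-treated skin of the sensitized dogs at 24 hr, but its groups lay closer together. At 0 hr it was at 10.25 ± 0.46 (SD, n = 6) in sensitized dogs (lowest 9.46, median 10.41, highest 10.68) and at 10.02 ± 0.48 (SD, n = 6) in nonsensitized dogs (lowest 9.22, median 10.08, highest 10.52). In saline-treated skin at 6 hr it was at 10.60 ± 0.36 (SD, n = 6) in sensitized dogs (lowest 9.97, median 10.62, highest 11.10) and at 10.25 ± 0.44 (SD, n = 6) in nonsensitized dogs (lowest 9.85, median 10.13, highest 11.04). In allergen-treated skin at 6 hr it was at 10.13 ± 0.44 (SD, n = 6) in sensitized dogs (lowest 9.66, median 10.02, highest 10.89) and at 10.21 ± 0.37 (SD, n = 6) in nonsensitized dogs (lowest 9.71, median 10.24, highest 10.70). All of these groups of FMO2 values overlapped one another.

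At 24 hr, FMO2 in saline-treated skin was at 9.69 ± 0.60 (SD, n = 6) in sensitized dogs (lowest 8.55, median 9.88, highest 10.17) and at 9.54 ± 0.44 (SD, n = 6) in nonsensitized dogs (lowest 8.73, median 9.68, highest 9.89). In allergen-treated skin of sensitized dogs the 5 values were 8.09 (dog 2853), 8.28 (dog 2855), 8.97 (dog 2838), 9.06 (dog 2841) and 9.89 (dog 2840), with a mean of 8.86 ± 0.71 (SD, n = 5). In allergen-treated skin of nonsensitized dogs it was at 10.45 ± 0.42 (SD, n = 6), with a lowest, median and highest value of 9.93, 10.41 and 11.09. Allergen and saline values of sensitized dogs overlapped at 24 hr, whereas the lowest allergen value of nonsensitized dogs, 9.93, was just above their highest saline value, 9.89.

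The FMO2 groups in descending order of the mean were sensitized 6 hr saline, nonsensitized 24 hr allergen, nonsensitized 6 hr saline and sensitized 0 hr at the same mean of 10.25, nonsensitized 6 hr allergen, sensitized 6 hr allergen, nonsensitized 0 hr, sensitized 24 hr saline, nonsensitized 24 hr saline and sensitized 24 hr allergen. Of the 9 pairs of neighbours, 0 differed by more than the larger of their SDs, and the means spanned 1.74. Of the 54 other arrays, 17 had an FMO2 level below the highest of the 5 arrays of allergen-treated skin of sensitized dogs at 24 hr.

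**Figure D1:**
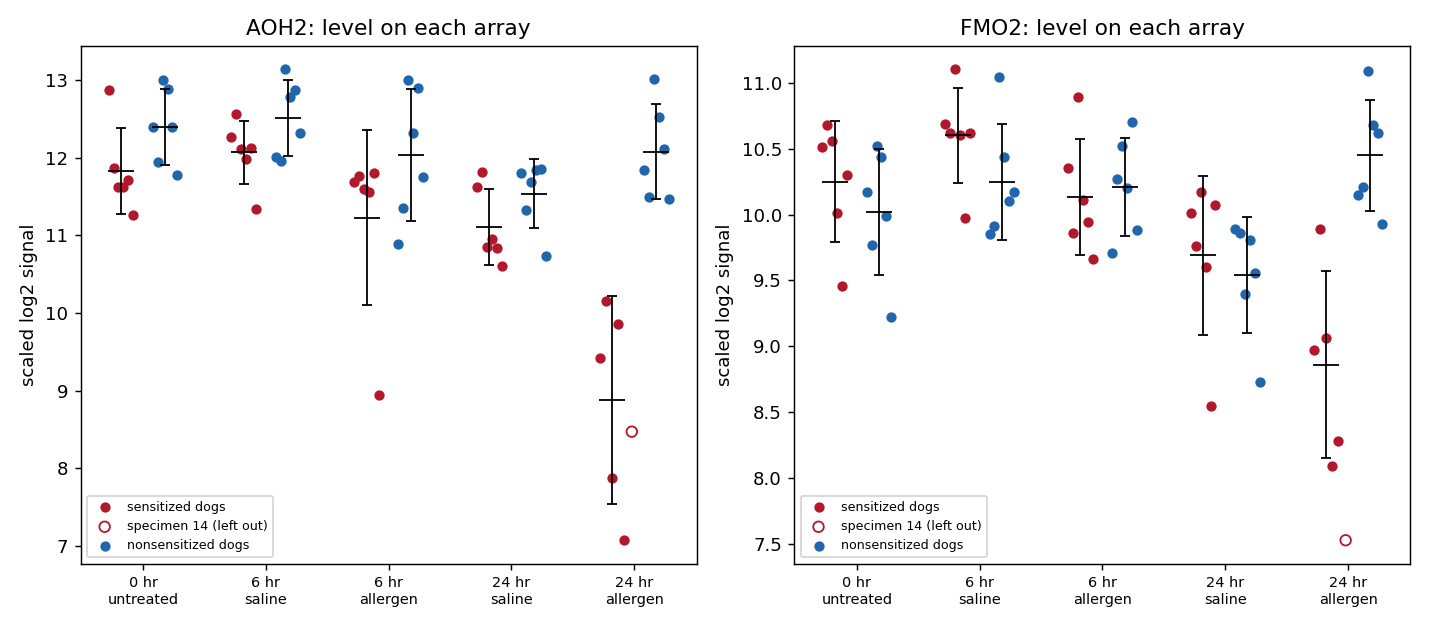
Log2 level after vsn scaling of AOH2 and of FMO2 (vertical axes) in the 10 groups of arrays (horizontal axes), with 1 point per array, and the mean and SD of each group as bar and whiskers. AOH2 of allergen-treated skin of sensitized dogs at 24 hr lies between 7.07 and 10.16, below all 6 saline values of the same dogs at that time.

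Specimen 14 had an AOH2 level of 8.47 and an FMO2 level of 7.53 when all 60 arrays were scaled together. Its processed signals were 243 for AOH2 and 118 for FMO2, over local backgrounds of 27 and 29, and both were well above background. Against the saline-treated skin of the same dog at 24 hr, AOH2 differed by −3.33 and FMO2 by −2.22. The array as a whole was dim, with a median signal of 71.0 and the share of its spots that stood well above background was 67.6%, where the 59 arrays used had between 68.8% and 80.2%.

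The 24 hr comparison asked whether sensitized dogs responded to the allergen differently from nonsensitized dogs. AOH2 in allergen-treated skin was lower than in saline-treated skin by 4.71-fold in sensitized dogs (log2 difference −2.24, SE 0.43, n = 5 and 6) and higher by 1.45-fold in nonsensitized dogs (0.54, SE 0.41, n = 6 and 6). The difference between these effects, the 24 hr interaction, was −2.77 (SE 0.59), or 6.83-fold. For FMO2 the allergen effect was −0.83 (SE 0.28, 1.78-fold) in sensitized dogs and 0.91 (SE 0.27, 1.87-fold) in nonsensitized dogs. The FMO2 interaction was −1.74 (SE 0.39), or 3.34-fold. The genes were chosen for these interactions, so the values are a description and were not tested. In biopsies of whole skin, fewer cells of a type and less RNA per cell cannot be told apart.

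Among all 45972 probes past the filter, 0.94% passed the test of the 24 hr interaction (432 probes, 156 of them lower), 0.274% that of the allergen effect in sensitized dogs and 0.766% that in nonsensitized dogs. A probe passed at an adjusted p below 0.05 in limma together with a difference of at least 1.5-fold. These array-wide counts depend on single dogs. The 432 probes became 15 without dog 2855, 43 without dog 2802, 45 without dog 2800, 208 without dog 2839, 216 without dog 2847, 253 without dog 2845 and 760 without dog 2704. The 126 probes of sensitized dogs became 30, 50 and 57 without dogs 2855, 2838 and 2839, and the 352 of nonsensitized dogs became 94 and 119 without dogs 2802 and 2800.

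Dog by dog, AOH2 was lower in allergen-treated than in saline-treated skin at 24 hr in 5 of 5 sensitized dogs, with changes of −3.53 in dog 2855, −3.08 in dog 2841, −2.20 in dog 2838, −0.98 in dog 2853 and −0.69 in dog 2840. In nonsensitized dogs it was higher in 6 of 6, with changes from 0.04 (dog 2704) to 1.32 (dog 2800) and a median of 0.47. The size of the AOH2 change thus varied widely among sensitized dogs (SD 1.25), and the smallest change among nonsensitized dogs was close to 0. The FMO2 changes of sensitized dogs were −1.78 in dog 2855, −1.04 in dog 2838, −0.54 in dog 2841, −0.46 in dog 2853 and −0.28 in dog 2840. In nonsensitized dogs FMO2 was higher in 6 of 6, from 0.27 (dog 2704) to 1.69 (dog 2800), with a median of 0.97. Dog 2855 had the most negative and dog 2840 the least negative change of both genes, and dogs 2800 and 2704 had the highest and the lowest positive change of both.

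**Figure D2:**
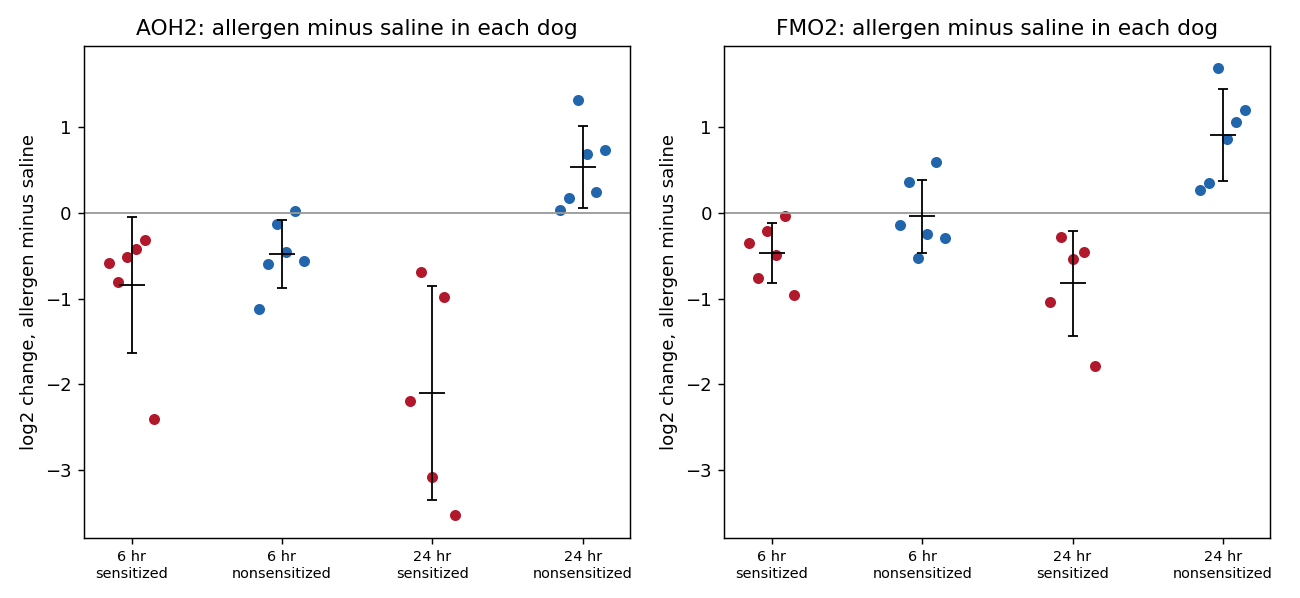
Change in log2 level from saline-treated to allergen-treated skin of the same dog (vertical axes) for AOH2 and FMO2 at 6 hr and at 24 hr, with 1 point per dog and separate columns for sensitized and nonsensitized dogs. At 24 hr all 5 sensitized dogs lie below 0 and all 6 nonsensitized dogs above 0 for both genes.

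The arrays were spread over 8 slides, and the 24 hr values within slides are given as a description. The allergen arm on slide 2 was 1 array in each group of dogs, and slide 3 held 1 array per arm of nonsensitized dogs. The allergen and saline arrays of a slide were not always from the same dogs. For sensitized dogs on slide 2, the allergen array was from dog 2841 and the saline arrays from dogs 2839 and 2840. On slide 3, dogs 2853 and 2855 had both sites, with AOH2 changes of −0.98 and −3.53. For AOH2 the mean of the allergen arrays minus that of the saline arrays in sensitized dogs was −3.46 on slide 2 and −2.01 on slide 3. In nonsensitized dogs it was 0.72, 0.09 and 0.69 on slides 1, 2 and 3. The within-slide AOH2 interaction was −3.55 on slide 2 and −2.70 on slide 3, and −3.14 with slide as a fixed block in the fit. The within-slide FMO2 interaction was −1.41 on slide 2 and −1.83 on slide 3, and −1.98 with the slide block. FMO2 alone differed by −0.90 and −0.96 on slides 2 and 3 in sensitized dogs, and by 1.08, 0.51 and 0.87 on slides 1, 2 and 3 in nonsensitized dogs. With the dog as a replicate block, the interaction was −2.68 for AOH2 and −1.73 for FMO2, and 1627 probes of the array passed in place of 432.

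The comparison of untreated skin asked whether the dogs differed before treatment. AOH2 differed by −0.57 in sensitized against nonsensitized dogs (SE 0.41, 95% confidence interval −1.39 to 0.24, n = 6 and 6), and FMO2 differed by 0.24 (SE 0.27, interval −0.30 to 0.77), with 0.08 without dog 2847 and 0.40 without dog 2853. Neither difference passed the test (adjusted p = 1.0 for both in limma), so that 0 of the 2 genes passed, against 0.00218% of all probes (1 probe, and 1540 at an unadjusted p below 0.05). The count of 1 probe became 4 without dog 2855, 3 without dog 2841 or 2853, 2 without dog 2847, and 0 without dog 2716, 2802, 2838, 2840 or 2845. The intervals leave room for differences of more than 1.5-fold in either gene. On slides 7 and 8 the AOH2 difference was −0.96 and −0.13, and the FMO2 difference was 0.32 and 0.79. The values of slide 8 rest on 1 nonsensitized array, from dog 2847, the lowest nonsensitized dog at 0 hr for AOH2 (11.78) and FMO2 (9.22).

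At 6 hr, both genes were lower in allergen-treated than in saline-treated skin in all 6 sensitized dogs, by amounts that did not pass the test across the array. The AOH2 difference was −0.84 (SE 0.41, 1.79-fold, interval −1.66 to −0.02, n = 6 and 6, adjusted p = 0.502 in limma). Of this difference a large share came from dog 2855, whose change was −2.41 against a range of −0.80 to −0.32 in the other 5, and without this dog it was −0.53. FMO2 differed by −0.47 (SE 0.27, 1.38-fold, interval −1.0 to 0.07, n = 6 and 6, adjusted p = 0.639 in limma), with changes from −0.96 in dog 2855 to −0.03 in dog 2853. These values do not pair the sites of a dog. With the dog as a replicate block, AOH2 had an SE of 0.27 (adjusted p = 0.0895 in limma). FMO2 then had an SE of 0.18 (adjusted p = 0.158 in limma). Thus 0 of the 2 genes passed, against 0.418% of all probes (192 probes, of which 185 were higher and 7 lower). That array-wide count was 33 without dog 2838, 54 without dog 2855, 106 without dog 2839, 108 without dog 2853 and 114 without dog 2840, 408 with the dog as a replicate block and 12 with a separate fit per time point. Within slides, AOH2 differed by −0.42 on slide 5 and −1.75 on slide 6, which holds the allergen array of dog 2855, and FMO2 by −0.24 and −0.64.

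In nonsensitized dogs at 6 hr, AOH2 was lower in allergen-treated skin in 5 of 6 dogs, with a difference of −0.47 (SE 0.41, interval −1.29 to 0.34, adjusted p = 0.968 in limma). FMO2 differed by −0.04 (SE 0.27, interval −0.57 to 0.50, adjusted p = 0.994 in limma), with 4 dogs lower and 2 higher, and its sign turned under normexp correction (0.02), with slide as a block (0.05) and without dog 2800 (0.06), dog 2847 (0.01) or dog 2802 (0.00). Here 0 of the 2 genes passed, against 0.0348% of all probes (16 probes, all higher, and 8, 9 and 10 without dogs 2802, 2704 and 2800). On slide 4, which alone holds both treatments of nonsensitized dogs at 6 hr, AOH2 differed by −0.89 and FMO2 by −0.22. The allergen and saline arrays of that slide came in part from different dogs. Dogs 2800 and 2845, with both sites on slide 4, changed by −0.13 and 0.02 for AOH2. Their FMO2 changes were −0.52 and 0.60.

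The allergen effects of the 2 groups of dogs at 6 hr were also compared directly. The 6 hr interaction was −0.36 for AOH2 (SE 0.58, interval −1.52 to 0.79, adjusted p = 1.0 in limma), and −0.05 without dog 2855. For FMO2 it was −0.43 (SE 0.38, interval −1.19 to 0.33, adjusted p = 1.0 in limma). In this comparison 0 of the 2 genes passed, against 0% of all probes, and 523 of the 45972 probes had an unadjusted p below 0.05 in limma. No slide holds both treatments of both groups of dogs at 6 hr, so no within-slide value can be given. Whether the interaction differed between 6 and 24 hr was not tested.

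The course in saline-treated skin showed how the levels of both genes moved at saline sites, in dogs that also carried an allergen patch. From 0 to 6 hr, AOH2 differed by 0.18 (SE 0.29, interval −0.40 to 0.75, adjusted p = 0.676 in limma, higher in 9 of 12 dogs) and FMO2 by 0.29 (SE 0.19, interval −0.09 to 0.67, adjusted p = 0.25, higher in 9 of 12 dogs). Over the alternatives fitted to all slides the AOH2 value lay between 0.07 and 0.35 and the FMO2 value between 0.17 and 0.41. Here 0 of the 2 genes passed, against 2.64% of all probes. From 0 to 24 hr, AOH2 fell by 0.79 (SE 0.29, 1.73-fold, interval −1.36 to −0.21, adjusted p = 0.0161 in limma), and it was lower in 12 of 12 dogs. FMO2 differed by −0.52 (SE 0.19, interval −0.90 to −0.14, adjusted p = 0.0159 in limma) and was lower in 11 of 12 dogs, but at 1.43-fold it was under the required fold. Thus 1 of the 2 genes passed, against 16.5% of all probes. The saline arrays of 24 hr are among those for which the genes were chosen, and these p are read with that limit. This comparison gives both groups of dogs equal weight, whereas the interaction takes a difference between them.

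The fall of AOH2 in saline-treated skin could not be told apart from the slides. All saline arrays of 24 hr were on slides 1 to 3 and all arrays of 0 hr on slides 6 to 8, so that no slide holds both. With slide as a fixed block, the 24 hr value against 0 hr rests on a link through 1 array, the 24 hr allergen array of sensitized dog 2840 on slide 8, and it became 1.02 for AOH2 and 1.01 for FMO2. With slide as a random block the AOH2 value was −0.63 (adjusted p = 0.20), and with the scan session as a block −0.48 (adjusted p = 0.635). Before scaling between arrays, the median of all probes was higher by 0.39 at 24 hr, and AOH2 was at −0.32, or −0.71 relative to that median. FMO2 was at −0.07 without scaling, or −0.46 relative to that median. At 6 hr, slide 6 holds 4 saline arrays and 1 array of 0 hr, between which AOH2 differed by −0.75 and FMO2 by 0.01. That array of 0 hr is from dog 2838, whose AOH2 level of 12.88 stood apart from the other 5 sensitized dogs, and the saline arrays are from 3 sensitized dogs and 1 nonsensitized dog.

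Against untreated skin of the same dog, AOH2 in allergen-treated skin at 24 hr was lower in 5 of 5 sensitized dogs (mean change −2.95, SD 1.21) and in 5 of 6 nonsensitized dogs (mean change −0.33, SD 0.19). FMO2 was lower in 5 of 5 sensitized dogs (mean change −1.31, SD 0.52) and higher in 5 of 6 nonsensitized dogs (mean change 0.43, SD 0.28). From 6 to 24 hr in allergen-treated skin, AOH2 changed by a mean of −2.24 in sensitized dogs and 0.03 in nonsensitized dogs, and FMO2 by −1.33 and 0.23. Over the same interval in saline-treated skin, the mean AOH2 changes were −0.96 and −0.97, and the mean FMO2 changes −0.90 and −0.71. The mean change was thus negative for both genes in saline-treated skin of both groups of dogs and in allergen-treated skin of sensitized dogs, and not in allergen-treated skin of nonsensitized dogs. The slides of 6 and 24 hr hardly overlap, so that time and slide cannot be told apart in these changes. These changes use arrays for which the genes were chosen and were not tested.

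AOH2 and FMO2 also varied together among arrays. Over the 59 arrays their levels had a Pearson r of 0.70 and a Spearman rho of 0.60, and without the 2 arrays farthest from the median AOH2 level r was 0.63. Without the 5 arrays of allergen-treated skin of sensitized dogs at 24 hr, r was 0.54 (n = 54). After the mean of each group was subtracted, r was 0.50 over all arrays, 0.59 over the 12 arrays of 0 hr, 0.55 over the 24 of 6 hr and 0.46 over the 23 of 24 hr. Arrays of the same dog share that dog, and arrays of the same slide share the slide, so these are descriptions without a p. The arrays of 24 hr are also those for which both genes were chosen. Among 40948 identifiers compared over the 59 arrays, 356 had a higher r with AOH2 than FMO2 had. For FMO2, 144 had a higher r with it than AOH2 had.

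**Figure D3:**
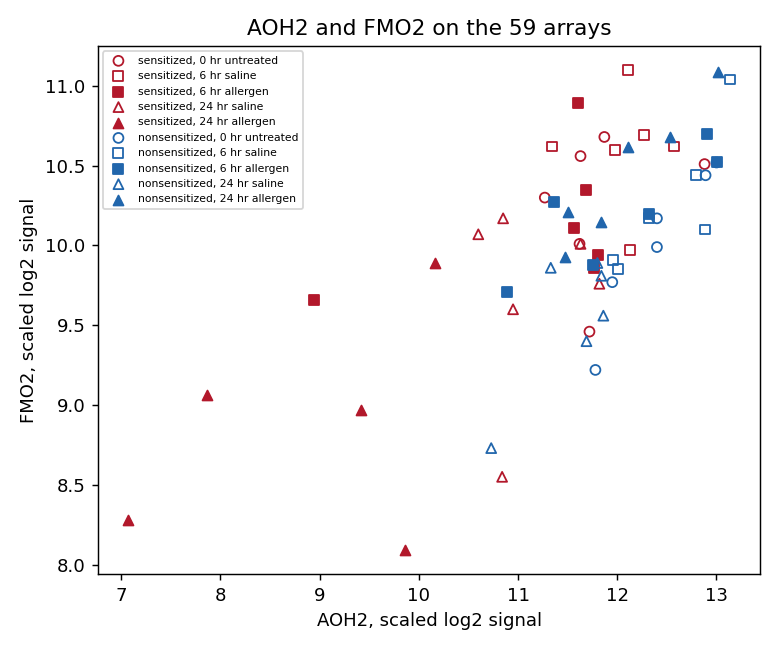
Log2 level of FMO2 (vertical axis) against that of AOH2 (horizontal axis) after vsn scaling, with 1 point per array, coloured by group, for the 59 arrays used. The 5 arrays of allergen-treated skin of sensitized dogs at 24 hr lie between 7.07 and 10.16 for AOH2 and between 8.09 and 9.89 for FMO2. The r is 0.70 with them and 0.54 without them.

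Single dogs kept their place across sites for AOH2. Dog 2855 was below the mean of its group on 5 of 5 arrays (mean −1.18), and so were dogs 2716 and 2847 (mean −0.50 each). Dogs 2800, 2802, 2838 and 2845 were above on 5 of 5 arrays, with means from 0.31 to 0.66. For FMO2, dog 2853 (mean −0.71) and dog 2847 (mean −0.51) were below on 5 of 5, and dog 2840 (mean 0.61) and dog 2838 (mean 0.20) above on 5 of 5. The lowest sensitized dog thus differed between the genes, being 2855 for AOH2 and 2853 for FMO2.

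The identifiers whose levels followed AOH2 most closely over the 59 arrays were DN875961 (listed as C5orf4 by the study), DN753644 and XM_536475, each with r = 0.84, XM_535965 with r = 0.83 and XM_860485 with r = 0.82. For FMO2 they were NM_001002999 (CA6, a secreted carbonic anhydrase) and ENSCAFT00000000088, each with r = 0.83, and ENSCAFT00000036482, TC63194 and ENSCAFT00000013508, each with r = 0.81. These identifiers were picked for their r over arrays that include the 24 hr allergen sites of sensitized dogs. Those without a symbol are given by identifier alone.

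Among other enzymes of the same families, AOX2, a second aldehyde oxidase, was measured by a dim probe that was well above background on 53 of 59 arrays. It did not pass the test in any of the 9 comparisons, though it did from 0 to 24 hr in saline-treated skin when arrays were scaled to their 75th percentile (−0.71, adjusted p = 0.0182). Its 24 hr interaction was −0.27 (SE 0.35, adjusted p = 0.852 in limma), and its allergen effect at 24 hr was 0.28 in sensitized dogs and 0.54 in nonsensitized dogs (adjusted p = 0.328 for the latter). With 1 dog left out or under the other alternatives the interaction lay between −0.47 and −0.03, the effect in sensitized dogs between 0.09 and 0.53 and that in nonsensitized dogs between 0.33 and 0.97. With the dog as a replicate block the nonsensitized effect had an adjusted p of 0.0239, but at 0.54 it was under the required fold. The probes of FMO1, a relative of FMO2, did not pass the filter on dim signals. The 2 probes of FMO1 were well above background on 15 and on 1 of 59 arrays. Each FMO1 probe gave a high signal on a single array, which was not read as a level of the gene, at 1650 in allergen-treated skin of nonsensitized dog 2802 at 6 hr (next highest 21.9) and at 75.4 in saline-treated skin of nonsensitized dog 2704 at 24 hr (next highest 5.75).

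In all, 33 genes of other oxidizing, retinoid-handling and conjugating enzymes could be named and passed the filter: AOX2, 1 aldehyde dehydrogenase (ALDH3A1), 3 retinoid genes, 12 cytochromes P450 and partners, and 16 conjugating and antioxidant enzymes. In the 24 hr interaction the median of the 33 was −0.12 against −0.004 over all probes. At an unadjusted p below 0.05 in limma there were 2 of the 33, against 6507 of all 45972 probes. With the adjusted p and the fold limit 2 of the 33 passed and were lower, against 0.94% of all probes. They were catalase (CAT), which breaks down hydrogen peroxide, and SULT1A1, a sulfotransferase of phenols. CAT had an interaction of −0.67 (SE 0.14, 1.59-fold, adjusted p = 0.00967 in limma), and in allergen-treated skin it was lower in 4 of 5 sensitized and higher in 6 of 6 nonsensitized dogs. Its call was lost without dog 2802 (adjusted p = 0.0543) or dog 2855 (0.0637), within a range of 0.000416 to 0.167 over the other alternatives. SULT1A1 had an interaction of −0.72 (SE 0.19, 1.64-fold, adjusted p = 0.0389 in limma), and in allergen-treated skin it was lower in 3 of 5 sensitized and higher in 6 of 6 nonsensitized dogs. Its call was lost in 8 of the 12 fits that left out 1 dog, the highest adjusted p being 0.188 without dog 2855, and over the other alternatives it ranged from 0.00528 to 0.296.

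Of the 33, 0 passed the limma test in the allergen effects of single groups of dogs at 6 hr and at 24 hr. In the 6 hr interaction and at 0 hr 0 passed as well. Of all probes, 0% to 0.766% passed in these comparisons, and the medians of the 33 lay between −0.02 and 0.08. At an unadjusted p below 0.05 there were 2 at 0 hr, 1 in sensitized and 0 in nonsensitized dogs at 6 hr, 0 in the 6 hr interaction, and 4 in sensitized and 5 in nonsensitized dogs at 24 hr. Of all 45972 probes there were, in the same order, 1540, 4377, 2513, 523, 5149 and 5376. With the dog as a replicate block, 1 of them passed in sensitized dogs at 6 hr and 2 in nonsensitized dogs at 24 hr, where 408 and 619 of all 45972 probes passed with that block. From 0 to 6 hr in saline-treated skin, 1 of the 33 was lower, against 2.64% of all probes: CYP4A11, a fatty acid hydroxylase, by −0.61 (SE 0.11, adjusted p = 3.01e-05, lower in 11 of 12 dogs). It lost this call without the filter (−0.57), with normexp (−0.53) and with the mean over the probes of a gene (−0.47). The call was also lost with slide as a random block (−0.38), with the scan session as a block (−0.09) and with slide as a fixed block (−0.01). With the replicate block 3 of the 33 passed in that comparison (1315 of all 45972 probes), and 0 with slide as a fixed block (0 probes) or a random block (145 probes).

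From 0 to 24 hr in saline-treated skin, 1 of the 33 was higher and 5 were lower, against 16.5% of all probes, and the median was −0.18. HMOX1, heme oxygenase, was higher by 1.11 (SE 0.25, adjusted p = 0.000123, 10 of 12 dogs). Lower were the cytochromes CYP4A11 (−0.80, adjusted p = 1.38e-08, 12 of 12 dogs), CYP2A13 (−1.17, adjusted p = 0.00482, 11 of 12 dogs) and CYP2A7 (−1.20, adjusted p = 0.00512, 11 of 12 dogs), and the glucuronosyltransferase UGT2B31 (−0.64, adjusted p = 6.55e-10, 12 of 12 dogs). The sulfotransferase SULT1B1 (−0.66, adjusted p = 0.0385, lower in 8 of 12 dogs) was well above background on 21 of 59 arrays, and it lost its call in 7 of the 12 fits that left out 1 dog, with −0.29 without dog 2841. Without scaling, the calls of CYP4A11 (−0.46), CYP2A13 (−0.87, adjusted p = 0.0613), CYP2A7 (−0.89, adjusted p = 0.0615) and UGT2B31 (−0.42) were lost, and 15077 of all probes were higher and 2944 lower, in place of 3155 and 4418. With the mean over the probes of a gene CYP4A11 (−0.54) and CYP2A13 (−0.73, adjusted p = 0.0518) were lost, and with normexp UGT2B31 (−0.47) and SULT1B1 (−0.43). With slide as a fixed block 0 of the 33 passed (3019 of all 45972 probes), as a random block 4 (5228 probes), with the scan session as a block 1 (1281 probes) and with the dog as a replicate block 8 (7664 probes). Under the fixed slide block the values were −0.24 for CYP4A11, −0.39 for UGT2B31, 0.91 for HMOX1, −1.92 for SULT1B1, −2.15 for CYP2A7 and −2.20 for CYP2A13. Under the session block CYP4A11 turned (0.06), and the values were −0.18 for UGT2B31, −0.57 for SULT1B1, −1.28 for CYP2A13 and −1.34 for CYP2A7.

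Markers of keratinized epidermis varied with both genes among arrays. The list held 14 such genes, of which 5 could be named and passed the filter, so the others are not covered here. In the 24 hr allergen effect 0 of 5 passed in either group of dogs, against 0.274% of all probes in sensitized and 0.766% in nonsensitized dogs. The median effects of the 5 were −0.15 and 0.36 in that order. The summed level of 5 markers of suprabasal keratinocytes (KRT1, KRT2, KRTDAP, DSG1 and TGM1, of which KRTDAP was the most abundant) had an r of 0.70 with FMO2 and 0.52 with AOH2 over the 59 arrays, and of 0.68 and 0.48 after group means were subtracted, over arrays that include those for which the genes were chosen. At 24 hr the mean summed level of sensitized dogs was 18.50 ± 0.15 with saline (SD, n = 6) and 18.45 ± 0.26 with allergen (SD, n = 5), where AOH2 differed by −2.24 and FMO2 by −0.83. In nonsensitized dogs it was 18.43 ± 0.14 and 18.69 ± 0.17 (SD, n = 6 each). In sensitized dogs at 24 hr the mean of KRTDAP was 17.82 with both treatments, and the other markers were lower with allergen. KRT1 was at 16.60 against 16.74 with saline, KRT2 at 14.02 against 14.16, DSG1 at 12.52 against 12.71 and TGM1 at 11.00 against 11.32. Of the 5 markers 1 passed in the 24 hr interaction, TGM1, a transglutaminase of the cornified envelope, at −0.59 (SE 0.15, adjusted p = 0.0332 in limma), and it was lower in 5 of 5 sensitized and higher in 5 of 6 nonsensitized dogs. The median interaction of the 5 was −0.54, and their part in the values of AOH2 and FMO2 was not tested.

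Other markers were followed in the same way. PPARG, the single measured gene of the sebaceous gland list and also a gene of adipocytes, had an r of 0.38 with AOH2 and 0.14 with FMO2. The summed leukocyte markers (3 genes, mostly CD163) had an r of −0.33 with AOH2 and −0.51 with FMO2, and of 0.15 and −0.15 after group means were subtracted. At 24 hr their summed level in nonsensitized dogs was 10.58 ± 0.49 (SD) with saline and 9.79 ± 0.38 with allergen. In sensitized dogs it was 10.13 ± 0.48 and 10.21 ± 0.46. KRT71, the single hair follicle marker, had an r of −0.41 and −0.40. For 4 fibroblast markers r was 0.28 and 0.22, for 2 endothelial markers 0.20 and 0.08, for 3 adipocyte markers 0.36 and 0.09, for 2 muscle markers −0.10 and −0.39 and for 4 melanocyte markers −0.18 and −0.04, in each case with AOH2 before FMO2. After group means were subtracted, r turned to −0.18 and −0.28 for the endothelial markers, and to −0.01 for PPARG with FMO2. Of the 25 marker genes that could be named and passed the filter, TGM1 alone passed in the 24 hr interaction, in which 0.94% of all probes did. From 0 to 24 hr in saline-treated skin 5 of the 25 were higher and 5 lower, against 16.5% of all probes, and in this comparison time and slide cannot be told apart. Basal keratinocyte markers were not analysed here. The share of spots well above background had an r of −0.15 with AOH2 and −0.25 with FMO2. The part of these cell types and of signal quality in the values of both genes was not tested.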

How the data were processed

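The deposited intensity values are processed signals, background-subtracted and spatially detrended per array by the authors with Agilent Feature Extraction 10.7.3.1. The deposited median spot and background brightness (intensity) served an alternative, and the other deposited columns used were 0 or 1 marks for spots well above background and for uneven spots. Spots bright enough on 5 or more arrays of any group were kept (47229 of 61657), scaled with a reimplementation of vsn, and averaged per probe. limma 3.58.1 was fitted to 45972 probes in 1 unpaired fit of 10 groups (the authors describe unpaired analyses by time point), with Benjamini-Hochberg adjustment over all probes. Arrays of the same dog correlated more (mean r 0.38, 116 pairs) than arrays of different dogs (−0.08, 580 pairs). RefSeq named 1067 of 54600 identifiers. Named are the listed aldehyde oxidases and monooxygenases past the filter, per other enzyme list and comparison up to 3 passing genes in each direction, and the 5 closest identifiers per gene. TGM1 and the dim FMO1 probes were named after their values were seen. Members and lists were chosen with earlier results of these data known.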

Additional observations from a re-analysis of the deposited data

Results flagged for a closer look

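Single values stood far from the rest of their group in 4 of 52 groups of values examined, where chance gives about 1 in 20. For AOH2, the untreated skin of sensitized dog 2838 was at 12.88, above the other 5, and the allergen-treated skin of sensitized dog 2855 at 6 hr was at 8.94, below the other 5. The 6 hr change of dog 2855, −2.41, was likewise the lowest of its group by a wide gap. For FMO2, the saline-treated skin of sensitized dog 2853 at 24 hr was at 8.55, below the other 5.

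The allergen effect at 24 hr differed between sensitized and nonsensitized dogs for AOH2 by −2.77 and for FMO2 by −1.74. These differences were not tested, since the genes were chosen for them. The same difference passed the limma test for SULT1A1 (−0.72), CAT (−0.67) and TGM1 (−0.59). The call of SULT1A1 was lost in 8 of the 12 fits that left out 1 dog. That of CAT was lost without dog 2802, without dog 2855 and without scaling. For TGM1 no value under an alternative is given.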

How the results depend on the processing

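The 24 hr interaction was negative in all alternatives run, in fits over all slides from −3.14 to −2.63 for AOH2 and −1.98 to −1.62 for FMO2, with 1 dog left out in turn from −3.14 to −2.42 and −1.90 to −1.52. Within slide 2 the AOH2 interaction was −3.55 and the difference in sensitized dogs −3.46, with allergen and saline arrays from different sensitized dogs. Within slide 6 the AOH2 effect at 6 hr was −1.75 in sensitized dogs and the 6 hr saline difference −0.75 (against 1 array of 0 hr), and within slide 8 FMO2 at 0 hr was 0.79. The fall of AOH2 in saline-treated skin at 24 hr missed the test without scaling (−0.32), without the filter (−0.66), with slide as a random block (−0.63) and with the session (−0.48), and turned with slide as a fixed block (1.02, FMO2 1.01). Over its alternatives, the adjusted p of AOH2 ran from 0.000401 to 0.635. Without a fold limit, FMO2 passed there (−0.52). FMO2 at 6 hr in nonsensitized dogs turned with normexp (0.02) and the slide block (0.05), and ranged from −0.17 to 0.06 with 1 dog left out. Turned as well: CYP4A11 at 24 hr in saline-treated skin with the session (0.06), and AOX2 at 6 hr in nonsensitized dogs with normexp and with the slide block (−0.02 each), and without dog 2704 or 2847 (−0.05 each, range −0.05 to 0.06), at 6 hr in saline-treated skin with the slide block (0.09) and without dog 2839 (0.02, range −0.11 to 0.02), and at 24 hr with the slide block (0.15).

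Counts of all probes that passed stand in parentheses. Of the 33 other enzyme genes, the number that passed at 6 hr in saline-treated skin, 1 in the report (1215), was 9 without a fold limit (13643), 4 with scaling to the 75th percentile (4358) and without scaling (3705), 3 without the filter (4681) and with the replicate block (1315), and 0 with normexp (639), with slide as a fixed (0) or random block (145), with the session (1) and with the mean over probes (1142). At 24 hr in saline-treated skin, 6 in the report (7573), it was 19 without a fold limit (27451), 10 with the 75th percentile (12376), 8 with the replicate block (7664), 4 with slide as a random block (5228), 0 as a fixed block (3019) and 1 with the session (1281). In the 24 hr interaction, 2 in the report (432), it was 1 with all 60 arrays (769), without the filter (199), with normexp (354) and with separate fits (356), 0 without scaling (85), and 0 to 2 with 1 dog left out. For the 24 hr allergen effect it was 1 in sensitized dogs with all 60 arrays (771), and in nonsensitized dogs, 0 in the report (352), it was 1 without a fold limit (679), with the 75th percentile (373), with slide as a fixed (380) or random block (404) and with separate fits (349), 2 with the replicate block (619) and 0 to 1 with 1 dog left out. In sensitized dogs at 6 hr it was 1 with the replicate block (408). The replicate block changed no call of AOH2 or FMO2 in the comparisons tested. The enzyme genes named in the text also kept their calls in the comparisons for which their values are given. At 0 hr the replicate block could not be fitted. In the 24 hr interaction, between 85 and 1627 of all probes passed over the alternatives, and between 15 (without dog 2855) and 760 (without dog 2704) with 1 dog left out. The cause was not tested. Both probes were well above background on all 59 arrays, and those of AOX2, SULT1B1 and FMO1 were not.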
